A study of Mus musculus with 2 samples.

Results

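Footprint-rich open elements were the peaks of open chromatin that carried 8 or more footprints in each of 2 animals. A replicate 1 peak was a member when it shared at least 1 bp with a replicate 2 peak and when both peaks held at least 8 footprint midpoints of their own replicate. Of the 71238 shared peaks on chromosomes 1 to 19, 479 met this rule, or 0.672%. They stood for 467 separate loci, because some peaks of a list overlap each other. The shared peaks came from 94373 peaks in replicate 1 and 105000 in replicate 2. The rule kept 1070 shared peaks when it was applied to the footprints of replicate 1 alone and 4844 when applied to those of replicate 2 alone. The members were chosen by their footprint counts in both replicates, so counts and densities of footprints are given below as a description and support nothing.

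The data were DNase-seq of thymus from 2 female mice aged 14 days of the strain B6CASTF1/J, whose parents are the inbred strains C57BL/6J and CAST/EiJ, so that each animal carries 1 allele of each. The design held 1 group with biological replicates 1 and 2, taken as 2 animals that share 1 donor identifier in the labels, and no treated, mutant or control group. No test over samples was possible with 2 animals of 1 group, and elements are not replicates, so the comparisons are descriptions. Intervals are 95% Wilson intervals and cover counting error only. Promoters of all 14 thymocyte and T cell markers had a shared peak, as did 3 of 7 for thymic epithelium, 3 of 5 for endothelium and mesenchyme, 2 of 6 for macrophages and dendritic cells, 1 of 6 for B cells and 1 of 4 for erythroid cells. Of all 20753 protein-coding genes, 12120 had a shared peak within 500 bp of a transcription start site. The counts of 3 of 5 and 3 of 7 lie near that share, and nothing is read from them. Thymus is a mixed tissue, and the cells an element was open in cannot be told from these lists.

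DNase I cuts DNA where nucleosomes leave it exposed, and a protein bound there protects a short stretch from the enzyme. A footprint is such a stretch, cut less than its surroundings inside an open region. Many mammalian promoters lie in CpG islands, stretches rich in G+C that kept their CpG pairs, and these are bound by factors that most cells contain, such as SP/KLF, NRF1, NFY and ETS proteins. Enhancers of T cell genes are usually poorer in CpG and carry sites of RUNX, ETS, E protein and TCF/LEF factors.

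The 8 elements shown here were those with the most footprints among 28 eligible members of at most 300 bp that overlap no exon, with 1 chromosome left out of the choice, 5 away from any transcription start site (TSS) and 3 at one. They show how densely footprints are packed. Bases are of the plus strand of GRCm38/mm10, that is, of the reference and not of the CAST/EiJ allele, and capitals mark bases inside replicate 1 footprints. The elements away from a TSS included chr17:88066081-88066340 near Fbxo11 (a substrate receptor of a ubiquitin ligase) and chr2:117120641-117120900 near Spred1 (an inhibitor of Ras signalling). The element at chr6:99522881-99523100 lay 1994 bp from the TSS of Foxp1 (a forkhead repressor), outside that gene and in an intron of another. An element at chr9:63720881-63721120 lay in an intron, 36993 bp from the TSS of Smad3 (a transducer of TGF-beta signals). The last lay at chr1:177441961-177442200 in an intron, 2214 bp from the TSS of Zbtb18 (a zinc finger repressor). The genes that hold these introns were not determined. Those at a TSS lay at chr3:51340701-51340980 for Elf2 (an ETS factor), at chr4:45408781-45409080 for Slc25a51 (a carrier of the inner mitochondrial membrane) and at chr1:178406281-178406540 for Efcab2 (an EF-hand protein).
Fbxo11: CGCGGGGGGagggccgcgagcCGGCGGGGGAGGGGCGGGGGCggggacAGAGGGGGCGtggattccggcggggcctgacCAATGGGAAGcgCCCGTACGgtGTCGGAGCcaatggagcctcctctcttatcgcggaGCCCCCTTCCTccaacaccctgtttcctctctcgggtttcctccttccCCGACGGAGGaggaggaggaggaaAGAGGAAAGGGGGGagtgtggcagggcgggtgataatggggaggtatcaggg
Foxp1: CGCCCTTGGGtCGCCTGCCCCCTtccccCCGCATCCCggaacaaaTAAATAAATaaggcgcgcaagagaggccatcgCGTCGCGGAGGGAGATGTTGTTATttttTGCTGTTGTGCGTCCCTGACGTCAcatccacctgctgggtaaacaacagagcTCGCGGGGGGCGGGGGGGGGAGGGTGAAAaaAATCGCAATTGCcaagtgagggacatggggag
Spred1: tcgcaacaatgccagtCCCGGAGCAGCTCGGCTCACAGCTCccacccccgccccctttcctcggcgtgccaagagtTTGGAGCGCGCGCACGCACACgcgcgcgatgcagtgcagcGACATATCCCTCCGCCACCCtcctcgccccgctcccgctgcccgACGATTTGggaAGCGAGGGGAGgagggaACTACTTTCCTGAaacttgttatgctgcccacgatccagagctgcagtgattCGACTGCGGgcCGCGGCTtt
Smad3: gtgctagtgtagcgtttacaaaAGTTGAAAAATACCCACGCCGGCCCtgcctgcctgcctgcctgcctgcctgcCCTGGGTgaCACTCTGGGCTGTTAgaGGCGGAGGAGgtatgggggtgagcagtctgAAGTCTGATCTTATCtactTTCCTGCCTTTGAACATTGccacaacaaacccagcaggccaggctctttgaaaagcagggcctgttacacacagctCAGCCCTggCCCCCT
Zbtb18: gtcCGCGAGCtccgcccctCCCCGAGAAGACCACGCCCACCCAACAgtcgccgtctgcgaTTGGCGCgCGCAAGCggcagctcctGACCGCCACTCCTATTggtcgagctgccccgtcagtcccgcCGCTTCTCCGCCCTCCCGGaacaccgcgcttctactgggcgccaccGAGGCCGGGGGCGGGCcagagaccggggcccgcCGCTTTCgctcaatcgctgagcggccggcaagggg
Elf2: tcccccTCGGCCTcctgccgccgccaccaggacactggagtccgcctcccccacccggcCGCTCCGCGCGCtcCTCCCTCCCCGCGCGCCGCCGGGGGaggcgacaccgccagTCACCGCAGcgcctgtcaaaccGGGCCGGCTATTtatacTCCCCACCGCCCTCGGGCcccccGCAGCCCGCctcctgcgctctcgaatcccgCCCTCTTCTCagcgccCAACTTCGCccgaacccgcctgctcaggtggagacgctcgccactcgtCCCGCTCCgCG
Slc25a51: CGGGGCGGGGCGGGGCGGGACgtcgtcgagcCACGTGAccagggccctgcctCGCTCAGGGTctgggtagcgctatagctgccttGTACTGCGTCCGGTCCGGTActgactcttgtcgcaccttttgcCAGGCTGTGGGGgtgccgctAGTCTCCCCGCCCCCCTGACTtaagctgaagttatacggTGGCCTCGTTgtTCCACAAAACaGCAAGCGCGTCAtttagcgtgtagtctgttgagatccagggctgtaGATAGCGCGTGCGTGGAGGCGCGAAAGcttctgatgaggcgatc
Efcab2: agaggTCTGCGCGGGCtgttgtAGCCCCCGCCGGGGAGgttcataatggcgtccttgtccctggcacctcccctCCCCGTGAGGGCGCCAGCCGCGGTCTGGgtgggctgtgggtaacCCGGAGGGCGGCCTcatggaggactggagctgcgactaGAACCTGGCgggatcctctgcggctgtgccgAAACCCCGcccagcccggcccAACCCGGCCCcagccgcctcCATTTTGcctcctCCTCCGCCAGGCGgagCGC

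Footprints covered between 38.8% of the bases (Fbxo11) and 58.6% (Foxp1) of these 8 elements. The Foxp1 element held 8 footprints in replicate 1 and 13 in replicate 2, with strengths of 4.35 and 3.55, and 7 of its 8 replicate 1 footprints overlapped a replicate 2 footprint. Strength is the authors' deposited signal of a peak, a value on a scale of its own in each replicate. The Foxp1 element held 1 match of GGGCGG (SP/KLF) and 1 of TGACGTCA (the cAMP response element, CRE), both in capitals. The Slc25a51 element held 4 matches of GGGCGG, all in capitals, and 1 of CACGTG, the E-box bound by MYC and USF factors. The Zbtb18 element held 2 matches of CCAAT (NFY), each with its midpoint in capitals, and had the highest strengths of the 8, at 24.96 in replicate 1 and 7.68 in replicate 2. The Smad3 element differed in composition: its 500 bp had 55.0% G+C and a CpG observed/expected ratio of 0.165, and it held no GGGCGG. It held 2 matches of CTTTGA, a TCF/LEF string, and 1 of the GATA factor string AGATAA. The other 7 had ratios between 0.698 (Fbxo11) and 1.07 (Zbtb18). Matches were searched on both strands, and a match is not evidence that the factor was bound.

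Members had a median of 9 footprints in replicate 1 (range 8 to 21) and 10 in replicate 2 (range 8 to 25). Most stood close to the limit of the rule, since the smaller of the 2 counts was 8 in 268 members, 9 in 104 and 10 or more in 107. The 653 shared peaks just outside, with a smaller count of 7, had median strengths of 4.78 in replicate 1 and 3.46 in replicate 2, against 4.68 and 3.55 for the 268 members just inside. Of the members just inside 79.1% were at a TSS and 87.7% were rich in CpG, against 70.6% and 77.3% of the peaks just outside. Median widths of the 479 members were 400 bp in replicate 1 and 480 bp in replicate 2, against 200 and 220 bp of all other shared peaks. Footprints in members had a median width of 11 bp in replicate 1 and 10 bp in replicate 2, against 9 bp in both for others of like mean width. Neighbouring footprint midpoints lay a median of 37 and 39 bp apart in members, against 49 and 55 bp.

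Because a wide peak has more room for footprints, members were set against other shared peaks weighted to the same widths. In the first comparison the mean width of the pair was alike, and in the second also the strength. The weighting on mean width left others narrower in replicate 1 (median 260 bp, against 400 bp in members) and wider in replicate 2 (600 bp, against 480 bp). A stricter comparison, added after this was seen, had like width in each replicate and like strength, and it could use 316 of the 479 members because 163 had too few counterparts.

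Members lay mainly at gene starts. The midpoint was within 500 bp of the TSS of a protein-coding gene in 374 of 479 members, or 78.1% (interval 74.2 to 81.6%). The share was 30.3% (29.4 to 31.3%) in others of like mean width, 52.9% (50.6 to 55.2%) with like strength as well, and 21.6% in all other shared peaks. Under the strictest comparison it was 79.4% of the 316 members used, against 63.2% (60.3 to 65.9%) of others, a difference of 16.3 points (10.8 to 21.3). Introns held 59 members (12.3%), against 39.2% of others of like mean width. In the strictest comparison introns held 9.49% of members and 17.6% of others. The space between genes held 28 members (5.85%), against 19.6% of others of like mean width, and exons held 18 (3.76%), against 10.8%. The strictest comparison gave 7.28% of members and 12.3% of others between genes, and 3.80% and 6.91% in exons. Of the 105 members away from protein-coding TSSs, 18 lay within 500 bp of a TSS of another gene type.

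**Figure D1:**
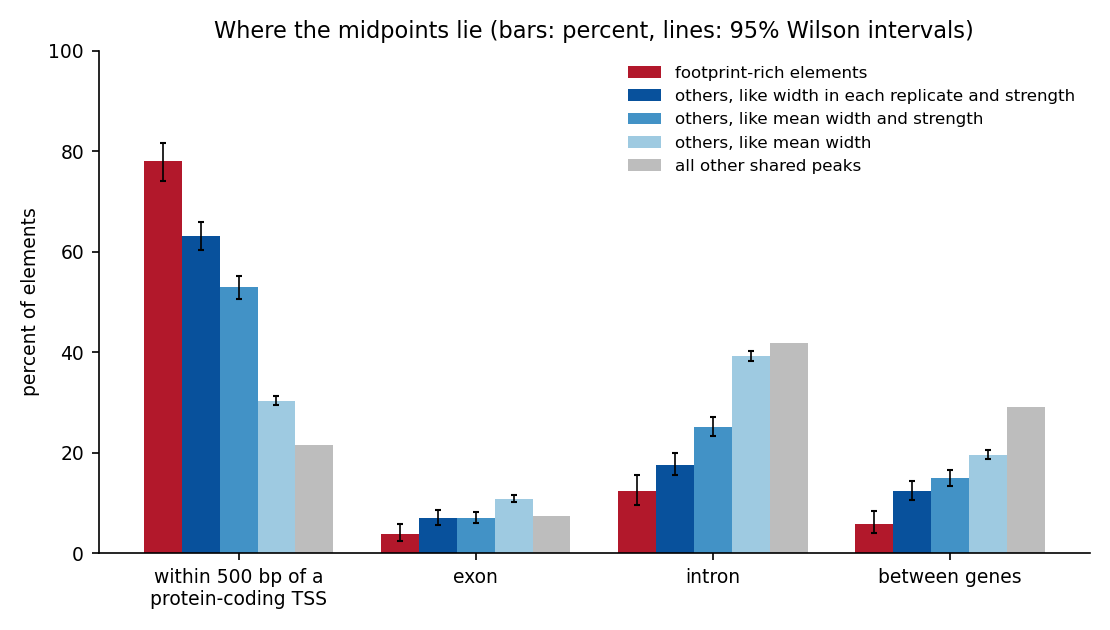
Percent of elements (vertical axis) whose midpoint lies within 500 bp of a protein-coding TSS, in an exon, in an intron or between genes, for footprint-rich elements (red) and 4 sets of other shared peaks, with 95% Wilson intervals for all but the last set. The TSS-proximal bar is 78.1% for footprint-rich elements and falls from 63.2% to 21.6% over the other sets as fewer properties are held alike.

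Almost all members were CpG-rich, defined as a CpG observed/expected ratio over 0.6 and over 50% G+C in the 500 bp around the midpoint. This held for 426 of 479 (88.9%, interval 85.8 to 91.4%), against 38.8% (37.8 to 39.8%) of others of like mean width and 59.4% with like strength. In the strictest comparison it held for 88.3% of members and 71.6% (68.9 to 74.1%) of others. At gene starts alone the difference was smaller: 93.9% of the 228 TSS-proximal members used were CpG-rich, against 90.3% (87.9 to 92.3%) of their counterparts in the strictest comparison. The median G+C was 68.2% over all members, and it ranged from 42.0% to 84.2%. When G+C was held alike in place of strength, 80.0% of 385 members and 60.3% of others were TSS-proximal.

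Members away from gene starts were also more often CpG-rich, by an amount that depended on the comparison. Of the 87 members over 500 bp from any TSS, 57 were CpG-rich (65.5%, interval 55.1 to 74.7%), against 23.0% (21.2 to 24.8%) of others of like mean width and 23.7% with like strength. In the strictest comparison, which kept 38 of them, the shares were 63.2% and 30.9% (25.2 to 37.2%). Of the 29 members over 5000 bp from any TSS, 11 were CpG-rich (37.9%), against 4.98% of others of like mean width. With G+C held alike, which takes away much of what defines the class, the contrast was within counting error, at 59.6% of 52 members over 500 bp from any TSS against 55.4% (51.4 to 59.3%) of others. At TSSs that comparison gave 94.7% of 281 members and 87.0% (85.1 to 88.6%) of others, and like mean width gave 94.2% and 78.5%. The 87 members comprised 53 in introns, 13 in exons and 21 between genes, of which 35, 8 and 14 were CpG-rich.

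**Figure D2:**
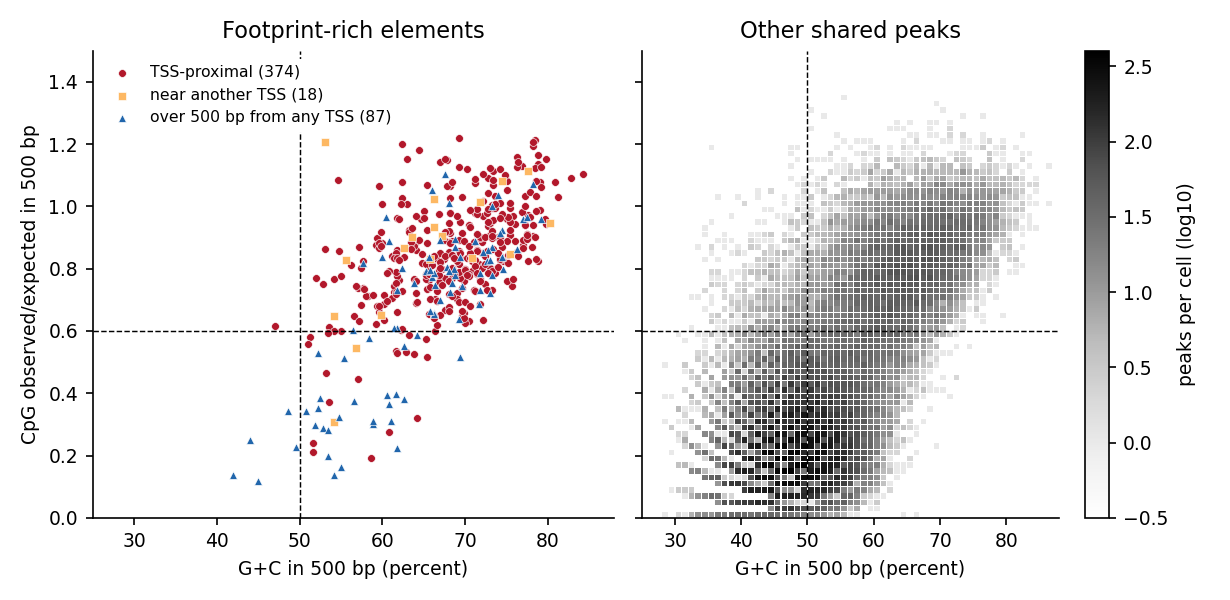
CpG observed/expected ratio (vertical axis) against G+C percent (horizontal axis) in the 500 bp around the midpoint, with one point per footprint-rich element on the left and the density of the other shared peaks on the right. Dashed lines mark 50% and 0.6. Most elements lie in the upper right field, which holds 426 of 479, and the elements away from any TSS (blue triangles) spread into the lower field, where most other peaks lie.

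Members were strong peaks, though strength and footprint number are related by the assay, as a footprint can only be seen where cuts are many. Median strength was 4.18 in replicate 1 (range 0.628 to 42.2) and 3.32 in replicate 2 (0.564 to 15.7), against 1.14 and 1.06 in others of like mean width. The 473 members used in that comparison had 4.26 and 3.40. The log2 ratio of the medians was 1.79 ± 0.16 (SD, n = 2 replicates), or 3.47-fold. In bulk tissue an element open in more cells and one more open in each cell cannot be told apart. All strengths could be written as a whole number of equal steps (tolerance 0.05 steps), and members held 121 to 8118 steps in replicate 1 and 98 to 2732 in replicate 2. The strongest 10% of shared peaks held 169 members by replicate 1 strength and 173 by replicate 2 strength, and the weakest 20% held none in either. Even in the strongest 1% members were few, with 53 of 712 peaks (7.44%) in replicate 1 and 30 of 712 (4.21%) in replicate 2.

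**Figure D3:**
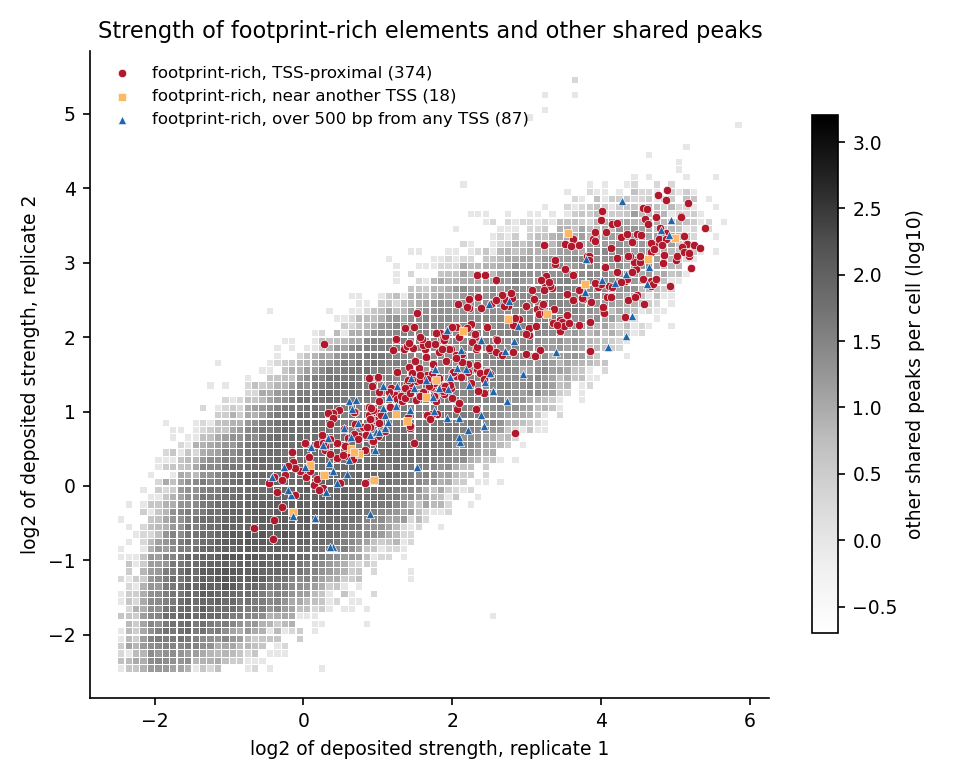
Deposited strength of each shared peak in replicate 1 (horizontal axis) and replicate 2 (vertical axis), both as log2, with footprint-rich elements as coloured points by location (squares are the 18 near a TSS of another gene type) and the density of the other shared peaks in grey. Footprint-rich elements span most of the upper range and none lies in the weakest corner.

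Within the members, the narrow elements were the strong ones. The 28 members with a mean width under 300 bp had median strengths of 10.7 in replicate 1 and 5.90 in replicate 2, and 92.9% were TSS-proximal. The 125 members from 300 to under 400 bp had 9.27 and 5.28, the 227 from 400 to under 600 bp had 3.95 and 3.41, and the 99 of 600 bp or more had 1.67 and 1.68. Among the widest, 61.6% were TSS-proximal. Spearman's rho of mean width and strength across elements was -0.57 in replicate 1 and -0.56 in replicate 2 for members, against 0.31 and 0.18 for the 70759 other shared peaks. An element can meet the rule by being wide or by being densely covered, so the choice of members bears on this sign. Across members the rank correlation of strength between the replicates was 0.92.

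The ratio of strength between the replicates varied with G+C and with width among members. The median log2 ratio of replicate 1 over replicate 2 strength was 1.02 in the 75 members under 60% G+C, 1.01 in the 81 from 60 to 65%, 0.42 in the 128 from 65 to 70% and 0.14 in the 195 at 70% or more. Other shared peaks of the same G+C classes had 0.16, 0.48, 0.36 and 0.14. Under 60% G+C, 65 of the 75 members were stronger in replicate 1 (86.7%), against 56.9% of others. It was also 0.91 in members under 300 bp of mean width, 0.74 from 300 to under 400 bp, 0.42 from 400 to under 600 bp and 0.04 at 600 bp or more, and the narrower members had the lower G+C. Others of like width in each replicate and strength had a median of 0.62, against 0.59 in the 316 members used. That comparison held the strength of each replicate alike, so it could not show whether the ratio sets members apart. Where strength was not held alike, the median was 0.44 in members and 0.14 in others of like mean width. With like width in each replicate and G+C it was 0.61 in members and 0.11 in others. The scales of the replicates need not be the same.

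Among the 10 members with the highest smaller count, the element at the TSS of Slc35e2, of a family of solute carriers, held 15 footprints in replicate 1 and 17 in replicate 2, with strengths of 5.41 and 7.12. Fmnl1, a formin that builds actin filaments in blood cells, had 15 and 17 footprints and strengths of 3.46 and 1.958. In both replicates Fmnl1 lay below the median strength of all members, and Slc35e2 lay above it.

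Next in this order came a carrier, 3 regulators of transcription and 2 genes of membrane proteins. Slc25a42, a mitochondrial carrier of coenzyme A, had 15 and 15 footprints at strengths of 30.3 and 6.45, the widest gap between replicates among these. The TSS of Nr3c1, the glucocorticoid receptor, had 14 and 15 at 4.19 and 4.40. The TSS of Ctcf, the zinc finger protein that anchors chromatin loops, had 14 and 14 at 12.3 and 7.11, in an element at chr8:105636041-105636580. Etv6, an ETS family repressor, had 13 and 18 at 1.83 and 2.08. Atrnl1 had 14 and 16 footprints at strengths of 4.28 and 4.002. The element at Kctd12, an auxiliary subunit of GABA-B receptors, was 1120 bp wide in replicate 1 and 1220 bp in replicate 2, with 13 and 23 footprints at 1.10 and 1.01.

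Another element of these 10 was of another kind. It lay in an intron of Ppp2r3d, a regulatory subunit of protein phosphatase 2A, at chr9:124439781-124440960, 16217 bp from the TSS of that gene and 11584 bp from any TSS. It held the most footprints of all members in replicate 1, 21, against 13 in replicate 2. Its strengths were low, at 1.32 in replicate 1 and 0.564 in replicate 2, where no member had a lower one. With 61.0% G+C and a CpG ratio of 0.311 it was not CpG-rich. A second member, chr9:124439781-124440720, lay inside it and shared its replicate 2 partner, so both count as 1 locus. The median number of genome copies of its 32-base words was 1, in the assembled chromosomes 1 to 19, X and Y. The same was true of 477 members, and the other two were at Gm45844 (2 copies) and near the pseudogene Gm10060 (4 copies).

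Other members over 5000 bp from any TSS differed in composition among themselves. An element at chr6:8485441-8486060 lay in an intron, 23849 bp from the nearest protein-coding TSS, that of Glcci1, a glucocorticoid-induced gene. It held 9 and 13 footprints and differed between replicates in strength, with 17.2 in replicate 1 and 3.66 in replicate 2. It had 50.8% G+C and a CpG ratio of 0.344. An element between genes at chr10:59964521-59965140, 12997 bp from Ddit4, an inhibitor of the mTORC1 kinase complex, held 11 and 9 footprints at 2.36 and 2.10. An element in an intron, 23800 bp from the TSS of Susd2, a membrane protein, was CpG-rich with a ratio of 0.754. Another in an intron, 35761 bp from the TSS of Rnf213, a ubiquitin ligase, was CpG-rich with a ratio of 0.802. The element nearest to Susd2 held 9 and 15 footprints, and that nearest to Rnf213 held 10 and 9. The genes that hold these introns, and the intron of the element nearest to Glcci1, were not determined.

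The 5 strongest TSS-proximal members included 2 genes of chaperones. Hspa8, the constitutive HSP70 chaperone, led with strengths of 36.0 and 13.9 and with 11 and 9 footprints. Maz, a zinc finger factor, had 42.2 and 11.004, the highest replicate 1 strength of all members. Add3 (an adducin of the membrane skeleton) had 29.5 and 15.7, Pdcd10 (a partner of GCKIII kinases) 29.4 and 14.4, and Dnajb1 (an HSP40 co-chaperone) 33.7 and 12.3. The strongest members not at a protein-coding TSS reached similar values. An element at chr14:65343841-65344060, 14725 bp from Zfp395, had 30.6 and 11.9, and one at chr1:86487361-86487820, 39135 bp from Ptma (prothymosin alpha), had 19.5 and 14.1. Elements near Cirbp (a cold-inducible RNA-binding protein) and Zc3h4 (a zinc finger protein of nuclear RNA control) had 30.1 and 10.4 and 28.1 and 10.8. One 246 bp from the TSS of the noncoding 1810026B05Rik, next to the remodeller gene Chd2, had 31.8 and 10.1. These 5 were all CpG-rich, with ratios from 0.743 to 1.10.

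At the level of genes, members marked 396 of 20753 protein-coding genes at a TSS, or 1.91%. Among the 12120 genes with any shared peak at a TSS the share was 3.27%. None of the 41 thymocyte and T cell genes had a member at a TSS, although all 41 had a shared peak there. A count of 0 among 41 lies near a background of 3.27%, and nothing is read from it. Nor was a member found at the TSS of the 20 cell cycle genes or the 14 ubiquitous genes, all with a shared peak. The same held for the lists of B cell (4 of 15 with a shared peak), macrophage and dendritic (6 of 16), thymic epithelium (7 of 15), endothelium and mesenchyme (4 of 14), erythroid (2 of 10), hepatocyte (0 of 14), neuron (5 of 13) and striated muscle genes (2 of 14). The list of chromatin and DNA architecture genes had 2 of 18, Ctcf and Tet2, too few to set against the background. The element at Tet2, an enzyme that oxidises 5-methylcytosine, held 8 and 9 footprints at strengths of 1.79 and 1.60.

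Few genes had several members in the gene body and 25 kb to each side. Nadk (NAD kinase), Ppp2r3d, Senp6 (a SUMO protease) and Ulk4 had 3, with overlapping members among them for Nadk, Senp6 and Ppp2r3d. Some of these belonged to neighbouring genes. The overlapping members at Nadk were nearest to Slc35e2, and the member at Senp6 outside the overlap was nearest to Myo6. At Ulk4 the 3 were the promoters of Ulk4 and of its neighbours Ctnnb1 and Trak1. Arid1b, a subunit of the BAF remodelling complex, was among the genes with 2. Its TSS-proximal element had 13 footprints in each replicate, and the next, in an exon, had 8 and 10. The median distance from a member to the next was 991600 bp, and 49 of 479 had another within 25000 bp. Members made up 0.437% (chromosome 15) to 0.868% (chromosome 18) of the shared peaks of a chromosome, and chromosome 11 had the most, with 47.

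Around the TSS, members sat slightly upstream. The median midpoint was 39 bp upstream over the 374 TSS-proximal members (interquartile range 145 bp upstream to 44.8 bp downstream). For the 228 in the strictest comparison it was 43 bp upstream, against 32 bp upstream in others. A midpoint downstream of the TSS was found in 30.7% of these 228 and in 37.4% (33.9 to 41.2%) of others. With like mean width the share was 35.3% of members and 56.7% of others, and with like width in each replicate and G+C it was 33.1% and 57.9%. With like mean width and strength it was 33.8% and 43.7%, so the difference was smaller in both comparisons that held strength alike. Starts of genes on both strands lay at 34 of the 374 (9.09%, interval 6.58 to 12.4%). Others of like mean width had 4.91%. In the strictest comparison the share was 10.96% of members and 12.3% (10.04 to 15.0%) of others.

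**Figure D4:**
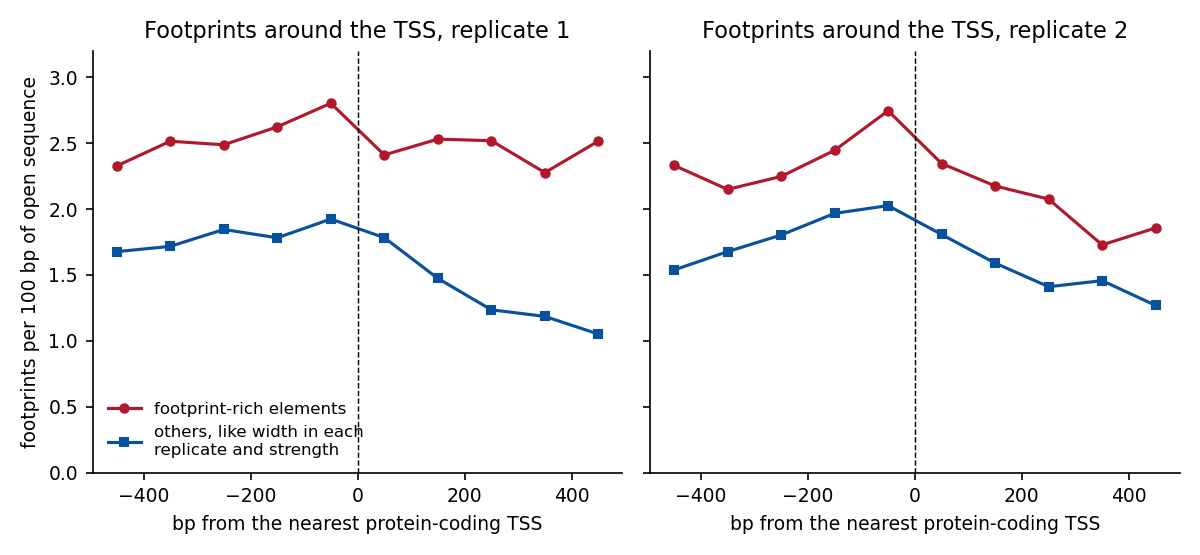
Footprints per 100 bp of open sequence (vertical axis) by distance from the nearest protein-coding TSS in the direction of transcription (horizontal axis, 100 bp bins) in each replicate, for TSS-proximal footprint-rich elements and for others of like width in each replicate and strength. Both peak in the 100 bp before the TSS. The higher level of the red line follows from the rule, which chose on footprint number.

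In that last 100 bp before the TSS, the 228 elements held 2.80 footprints per 100 bp in replicate 1 and 2.74 in replicate 2, against 1.92 and 2.03 in others. From 200 to 300 bp downstream they held 2.52 and 2.08, against 1.24 and 1.41. Others thus thinned out downstream in both replicates, while members stayed level in replicate 1 and declined in replicate 2. The choice of members by footprint number bears on level and shape alike.

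The rule asked for many footprints in both replicates, so it also bears on how often a footprint of one replicate meets one of the other, and the overlaps are a description only. Of the footprints of a replicate inside members, 61.4% ± 4.15 (SD, n = 2 directions) had their midpoint in a footprint of the other replicate. In others of like mean width it was 34.1% ± 2.85. The 2 directions compare the same 2 animals, so these SDs do not measure spread over animals. Footprints of the other replicate covered 29.7% of the bases of these members and 11.3% of those of others, and the ratio of the share of midpoints to the share of bases was lower in members, at 2.07 against 3.02. In the strictest comparison the shares were 65.5% ± 5.51 and 61.4% ± 3.24. Footprints of replicate 1 gave 61.6% against 59.1%, and those of replicate 2 gave 69.4% against 63.7%. The difference was 4.12 ± 2.27 points (SD, n = 2 directions), against 27.3 points with like mean width. In the strictest comparison the other replicate's footprints covered 33.8% of the bases of members and 24.1% of others. The same ratio was again lower in members, at 1.94 ± 0.048 against 2.55 ± 0.103 (SD, n = 2 directions).

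Strings of transcription factor sites were counted per kb of replicate 1 peak, within TSS-proximal and remote elements apart, in the strictest comparison. SP/KLF sites (GGGCGG) were the most frequent. They occurred 7.92 times per kb in the 228 TSS-proximal members, in 86.4% of them (81.4 to 90.3%), against 6.31 per kb and 77.1% (73.7 to 80.1%) of others. In the 38 remote members they occurred 5.72 times per kb, in 65.8% (49.9 to 78.8%), against 1.98 per kb and 35.9% (29.9 to 42.3%). NRF1 sites, of a factor bound at promoters of mitochondrial and other housekeeping genes, were in 23.7% (18.6 to 29.6%) of TSS-proximal members and 16.4% (13.8 to 19.4%) of others, or 1.09 and 0.653 per kb. The base composition differed in the same direction, with a median G+C of 65.7% in the 38 remote members and 55.6% in their counterparts.

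Strings of factors that act in T cells differed in direction. RUNX sites (TGTGGT) occurred 0.194 times per kb in TSS-proximal members, in 6.58% (4.03 to 10.6%), against 0.401 per kb and 12.8% (10.5 to 15.5%) of others. The intervals of these shares just overlap, and in the other 3 comparisons the shares were closer, at 8.89% against 10.1% with like mean width, 8.92% against 9.63% with strength as well, and 8.19% against 9.87% with like width in each replicate and G+C. In remote members they were in 5 of 38 (13.2%, interval 5.75 to 27.3%), against 26.6% (21.3 to 32.8%), and these intervals overlap. Remote members also had fewer AGGAAG strings, an ETS site, with 26.3% (15.0 to 42.0%) against 49.8% (43.3 to 56.3%), while the CpG-containing ETS string CCGGAA was in 12 of 38, or 31.6% (19.1 to 47.5%), against 15.0% (10.96 to 20.3%), with intervals that overlap. At a TSS both ETS strings were near the level of others, with 34.6% against 32.9% for AGGAAG and 32.5% against 33.3% for CCGGAA. The shares of both E-boxes of E proteins, CAGCTG and the related CACCTG, had intervals that overlapped those of others in both locations. The same held for the GATA, NFY and MYC strings, and for the TCF/LEF string, whose ratio of matches per kb was 1.38 at TSSs and 1.53 away.

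Several of these ratios moved when G+C was held alike in place of strength. Matches of GGGCGG per kb in members over others then had a ratio of 1.33 at TSSs and 2.10 away from them, against 1.25 and 2.89 with like strength. For RUNX the ratios were 0.784 and 1.07, against 0.485 and 0.578, so the lower RUNX level did not hold in remote members with like G+C and was closer to that of others at TSSs. For AGGAAG away from TSSs the ratio was 0.837, against 0.477. CCAAT and NRF1 went further from 1 at TSSs, to 2.03 and 2.35, against 1.09 and 1.66.

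**Figure D5:**
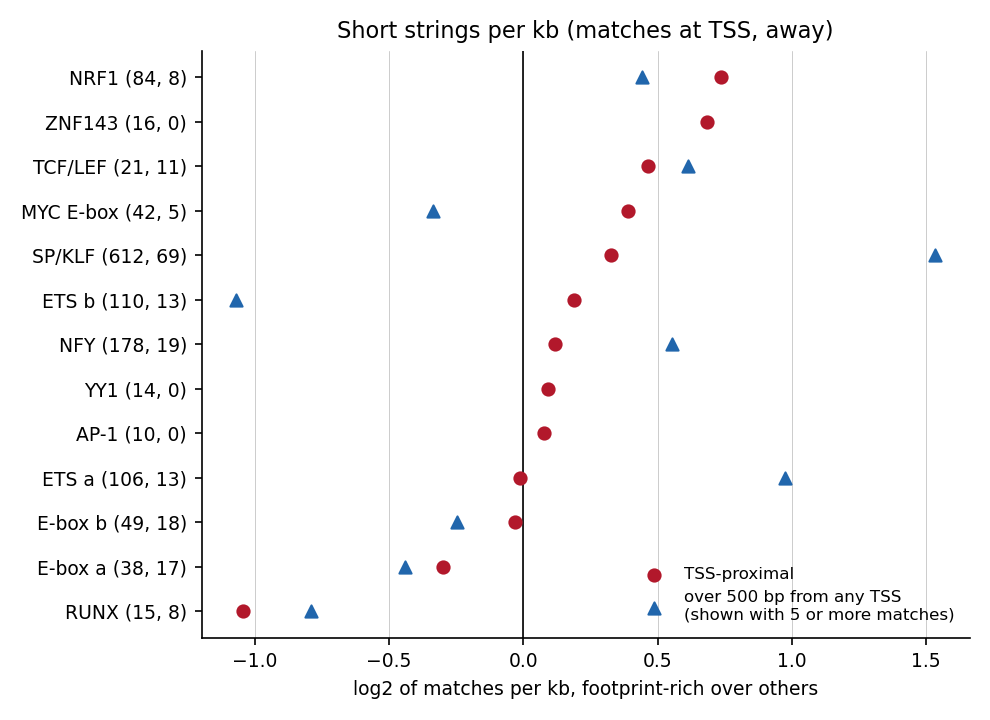
Log2 ratio of matches per kb in footprint-rich elements over others of like width in each replicate and strength (horizontal axis), for strings with 10 or more matches in TSS-proximal members, at TSSs (red) and over 500 bp from any TSS (blue). Numbers in brackets are matches in members at TSSs and away. ETS a is CCGGAA, ETS b AGGAAG, E-box a CAGCTG and E-box b CACCTG. RUNX is lowest at TSSs and SP/KLF is highest away from them.

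Rarer strings gave little to compare. The CTCF motif was in 0 of 374 TSS-proximal members and 2 of 479 in all, against 0.957% of TSS-proximal others, and a count of 0 of 228 in that comparison has an upper limit of 1.66%. TGACGTCA was in 15 of 479 members, AAGATGGC (YY1) in 24, TTTCCCGC (E2F) in 17, TGANTCA (AP-1) in 16, TTCAGCACC (REST) in 3 and CAAAGTCCA (HNF4) in 0. The motifs of ZNF143, BANP, IRF and MEF2 were in 14, 4, 19 and 2. In the strictest comparison, matches per kb in members over others had ratios of 2.15 for TGACGTCA, 1.60 for ZNF143 and 1.45 for IRF. Ratios were 1.42 for BANP, 1.11 for YY1, 0.890 for E2F and 0.764 for AP-1. Each rests on 3 (BANP) to 16 (YY1 and ZNF143) matches in members. MEF2 had a ratio of 9.96 from 2 matches, and REST and HNF4 had no match in members used. The shares with TGACGTCA had intervals that overlap, at 3.80% (2.185 to 6.52%) against 1.66% (1.06 to 2.58%). In all 374 TSS-proximal members, 58.1% of GGGCGG matches lay in a replicate 1 footprint and 52.6% in a replicate 2 footprint, against 57.6% and 51.9% in others weighted to the 228 members of the strictest comparison. Footprints covered 31.7% and 27.6% of the bases of those members, against 29.4% and 25.8% in others. NRF1 matches lay in footprints more often, with 81.3% and 80.6% in members, against 78.4% and 73.9% in others.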

How the data were processed

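DNase-seq peaks and footprints of thymus from 2 mice were used as deposited. Per the listing deposited with each sample, the authors made peaks and footprints of each replicate by itself, from reads aligned to mm10. The aligner, the callers, their settings and the mapping of reads from CAST/EiJ alleles were not given in the sources used here, and the files do not name them. The authors' deposited signal per peak, called strength, has a scaling that is not given, so the read depth is unknown. The deposited p-value column of the footprints is 0.01 throughout, and only positions were used. The longer peak list of each replicate, on chromosomes 1 to 19, was the main one.

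A footprint counted for a peak when its midpoint lay inside it. Where several replicate 2 peaks overlapped, as for 121 members, the one with the most footprints was the partner. Other shared peaks were weighted to the members' shares of width classes (20 bp of mean width; 40 bp with 5 classes of strength in each replicate; 60 and 120 bp in replicates 1 and 2 with the same strength classes, or with 5-point classes of G+C). Classes with under 5 other peaks were left out. Intervals for weighted shares use the effective number of peaks. Location came from GENCODE M21 basic, 54 duplicated symbols were left out, and sequence came from RefSeq GRCm38.p6. Counting, pairing and weighting were tested on simulated intervals. Python 3.11.15, numpy 2.4.6 and pandas 2.3.3 were used.

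The members, the 12 gene lists (212 genes) and the 22 strings were chosen with earlier results of these data known. Named elements were the 10 with the highest smaller footprint count, the first 6 of that order over 5000 bp from any TSS, list genes with a member, the 8 genes with the most members within 25 kb, and the 5 strongest members at and away from a protein-coding TSS. Printed sequences were chosen from members outside chromosome 18. Of the first 10, 1 element is not reported here. Reported alternatives changed the footprint limit, peak list, overlap, counting of footprints, replicates in the rule, comparison peaks, TSS window, TSS set and base-composition window.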

Additional observations from a re-analysis of the deposited data

Results flagged for a closer look

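On the X chromosome, which the comparisons did not use, 11 of 1753 shared peaks met the same rule (0.627%, 95% Wilson interval 0.351 to 1.12%), against 0.672% (0.615 to 0.735%) on chromosomes 1 to 19. It is given because it is a count above 0 in data outside the main measurement.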

How the results depend on the processing

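Members minus others of like mean width differed by 48.3 points in TSS-proximal share, 50.5 in CpG-rich share and 27.3 in footprints found in the other replicate (on which the rule's counts bear), with a log2 strength ratio of 1.79, and 396 genes had a member at a TSS. No alternative reversed the direction of a difference or of a mean over the replicates. The log2 strength ratio of replicate 1 alone was -0.0135 with like width in each replicate and strength, where strength was held alike. Of 58 values, which include counts without a direction, 42 moved by more than their error or by over 1.5 times. Comparisons of like width in each replicate were chosen after seeing the data. In the same order of measures, like mean width and strength gave 26.4, 29.7, 6.71 and 0.14 by construction, like width in each replicate and strength 16.3, 16.7, 4.12 and 0.0603, and like width in each replicate and G+C 19.7, 12.01 and 22.7. At least 6 footprints gave 2823 members, 43.3, 45.3 and 24.0 points and 2160 genes, while at least 10 gave 107 members, 53.4 TSS-proximal points, a log2 ratio of 1.49 and 93 genes. The shorter peak list gave 41.5, 41.6, 22.6 and 1.42, reciprocal overlap of 50% gave 42.2, 39.2 and 29.1, whole footprints gave 26.04 points found and 1.55, and a TSS window of 2000 bp gave 35.6 points. Leaving out 1 replicate from the rule gave 1070 (without replicate 2) to 4844 members (without replicate 1), 27.2 to 38.8 TSS-proximal points, 22.7 to 43.3 CpG-rich points, 20.7 to 21.4 points found, log2 ratios of 1.41 to 1.503 and 776 to 2224 genes. Causes were not tested beyond what each construction changes. Footprints are seen only where cuts are many, and the read depth is not known. No paired analysis was possible because the design has 1 group.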
